A study of Rattus norvegicus with 4 samples.

Results

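A stretch of rat chromosome 20, 6600000 to 6850000 in the build rn4 (positions numbered from 1), was examined because it was expected to hold Fkbp5 and because groups of glucocorticoid receptor (GR) sites were seen there in these same data. It held 14 of the 7280 regions of the genome in which GR reads exceeded the background at either of 2 doses of corticosterone. No rn4 annotation was used here, so that the place of the gene within the interval was not checked and the sites are given by coordinates, without statements on exons, introns or promoters. The sites were chosen on GR reads after 3000 µg/kg with the difference between the doses also known, and their counts in those comparisons are a description with no test.

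Fkbp5 encodes FKBP51, a co-chaperone that joins the Hsp90 complex of GR and lowers the affinity of the receptor for its hormone. Its transcription is raised by hormone-bound GR, so that the gene is part of a short feedback loop on the receptor, and in the brain it is a common readout of glucocorticoid action. GR is a nuclear receptor that enters the nucleus once it has bound a glucocorticoid, which in the rat is mainly corticosterone, and binds DNA at sites that often lie far from gene starts. The hippocampus holds this receptor together with the mineralocorticoid receptor, which binds corticosterone more tightly and was not measured in these libraries.

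The libraries came from hippocampi of male Sprague-Dawley rats that were 8 weeks old and had been adrenalectomized 3 days earlier, which removes their own corticosterone. All were killed 1 hour after an intraperitoneal injection of corticosterone in a cyclodextrin complex, with 6 animals per group. The low dose was 300 µg/kg and the high dose 3000 µg/kg. Chromatin of 6 hemispheres of a group was pooled and divided between antibodies, and chromatin immunoprecipitation with sequencing (ChIP-seq) gave 1 GR library (antibody H-300) and 1 library with normal rabbit IgG per dose. The labels describe the preparation for sequencing for the libraries of the high dose alone. No untreated library was analysed here. There were no replicates: every value below compares single libraries of pooled chromatin, and a difference between doses cannot be told apart from a difference between immunoprecipitations or library preparations. In bulk tissue, binding in more cells and stronger binding per cell also cannot be told apart.

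Each library held 468802 reads, of which 458480 to 461308 lay on chromosomes 1 to 20 and X. Between 30.5% and 52.8% of the reads of a library could be paired with an opposite-strand read 50 to 140 bases away, and whether such reads are both ends of 1 amplified fragment was not tested. The pairs were also merged and counted once, as fragments. Intervals on reads are too narrow where a fragment was counted as 2 reads. Ranges in parentheses are 95% Clopper-Pearson limits and reflect counting error alone.

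An even spread would have placed 42.2 to 42.4 reads of each library in the interval. The GR library at the high dose held 316 reads there, the GR library at the low dose 99, the IgG library at the high dose 74 and the IgG library at the low dose 48. The reads were therefore most numerous with the GR antibody at the higher dose, and the IgG library of that dose also lay above an even spread. The 14 sites covered 7200 bases, 2.88% of the interval, and took 230 of the 316 GR reads at the high dose and 47 of the 99 at the low dose. IgG placed 13 of its 74 reads in them at the high dose and 2 of 48 at the low dose. Outside the sites the density was 0.354 reads per kb for GR and 0.251 for IgG at the high dose, and 0.214 and 0.190 at the low dose, against 0.169 to 0.170 over the genome.

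**Figure D1:**
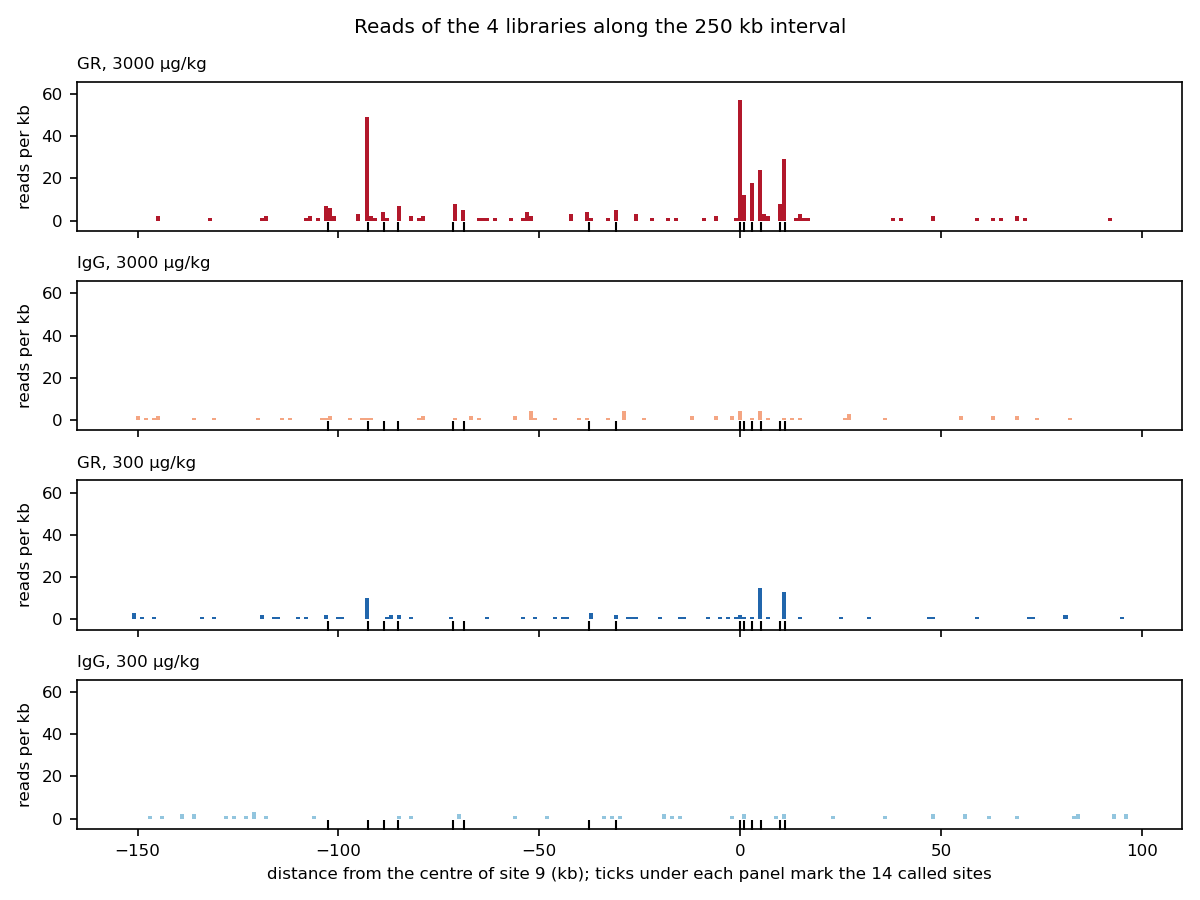
Reads per kb of the 4 libraries (vertical axis) along the interval, by distance in kb from the centre of site 9; black ticks mark the 14 called sites. GR reads at the high dose stand in 2 groups, whose strongest sites lie 92.7 kb apart, those at the low dose stand out at 3 places, and IgG reads stay low throughout.

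All 14 sites were called in the libraries at the high dose and 3 of them also at the low dose, where 7.75% of all regions of the high dose overlapped one of the low dose; no region of the interval was called at the low dose alone. A call required at least 4 GR reads in 300 bases and a Poisson p of at most 1e-05 against the local IgG background. At the high dose 44 of 2498 windows of the interval (1.76%) were called, where 0.0567% of windows were called over the genome. At the low dose 10 windows (0.400%) were called, against 0.011% over the genome. The interval was chosen for its sites, and these shares describe it only. With the GR and IgG libraries exchanged, 0 regions were called in the interval at either dose, against 1300 and 954 in the genome at the high and the low dose. So few regions over the genome leave most stretches of this length with 0. The interval was also chosen for its GR reads, which the exchange made the background, so that this 0 is no check of the sites.

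The interval was the place of densest sites at the high dose under the main setting of the caller and 6 of 8 others, but not alone at a p threshold of 1e-07 or with windows of 600 bases, where 1 other locus held as many. Among 54278 stretches of 250 kb, placed every 50 kb, 2 held 14 or more regions, namely this interval and a stretch that overlaps it; the median stretch held 0 and the mean was 0.576. The overlapping stretch starts 50 kb earlier and also takes in the nearest region before the interval. By GR reads in regions, less IgG reads, the interval held 217 and was equalled or exceeded by stretches of 2 separate loci, its own included. At the low dose its 3 regions were matched by stretches of 40 separate loci, and its 34.0 reads above IgG by stretches of 7, its own included in both.

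The first group of sites, sites 1 to 4, was led by 1 strong site. Site 2, from 6659501 to 6660100, held 47 GR and 2 IgG reads at the high dose, and 10 GR reads and 0 IgG reads at the low dose. It was high with GR at both doses, and its GR counts lay above both IgG counts. It ranked 16th by GR reads among the 6255 regions called at the high dose. The ratio of GR reads at the high to the low dose, at equal library size, was 4.68 (2.33 to 10.4) on reads and 4.98 (1.88 to 16.6) on fragments.

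The other 3 sites of this group were weaker. Site 1, from 6649701 to 6650200, held 13 GR and 2 IgG reads at the high dose and 2 and 0 at the low dose. Site 3, from 6663701 to 6664200, held 5 and 0 reads at the high dose and 1 and 0 at the low dose. Site 4, from 6667001 to 6667500, held 6 and 0, then 2 and 0. At the low dose these sites had 1 or 2 GR reads each, within the 3 reads that a count of 0 allows. Binding was thus not detectable at any of them alone at this depth. Summed over the 4 sites and 2100 bases, GR held 71 reads at the high dose and 15 at the low dose, a ratio of 4.71 (2.67 to 8.86).

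A further 4 weak sites lay between the groups. Site 5, from 6680901 to 6681300, held 8 GR reads and 1 IgG read at the high dose. Sites 6 (6683501 to 6683900), 7 (6714701 to 6715200) and 8 (6721501 to 6721900) held 4, 5 and 5 GR reads and 0 IgG reads. At the low dose site 8 held 2 GR reads and the other 3 held 0, and IgG held 0 in all 4. Site 6, at the minimum of 4 reads, was the weakest of the interval. Where the low dose held 0 GR reads, the lower limit of the ratio between the doses was 1.70 at site 5, 0.912 at site 7 and 0.657 at site 6. An excess at the high dose was thus not bounded at sites 6 and 7, nor on fragments at site 5, with a lower limit of 0.877. Sites 5, 7 and 8 were not called on fragments, and neither were sites 3 and 13. On fragments 9 sites were called, and 3033 regions in the genome, against 6255 on reads.

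The second group was the denser, with 6 sites whose centres spanned 11.05 kb. Site 9, from 6752101 to 6752900, was the strongest of the interval and ranked 6th of 6255 by GR reads. It held 57 GR and 4 IgG reads at the high dose but 2 GR and 0 IgG reads at the low dose. GR at the higher dose thus stood far above the other 3 libraries, and GR at the lower dose could not be told from background. On fragments the counts were 31 and 2 at the high dose and 1 and 0 at the low dose.

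The next 2 sites showed the same order at lower counts. Site 10, from 6753301 to 6753800, held 11 GR and 0 IgG reads at the high dose and 1 and 0 at the low dose. Site 11, from 6755101 to 6755700, held 15 and 1, then 1 and 0. Site 13, from 6762101 to 6762600, held 7 GR reads at the high dose and 0 reads in the other 3 libraries, and the lower limit of its ratio between the doses was 1.44 on reads and 0.632 on fragments.

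Sites 12 and 14, in the same group, carried most of the GR reads at the low dose. Site 12, from 6757501 to 6758000, held 21 GR and 3 IgG reads at the high dose and 14 GR and 0 IgG reads at the low dose. Site 14, from 6763301 to 6763800, held 26 and 0 reads at the high dose and 12 and 2 at the low dose. At both sites each GR library lay above each IgG library. Over the 6 sites and 3400 bases GR held 137 reads at the high dose and 30 at the low dose, a ratio of 4.54 (3.04 to 6.99), close to that of the first group, with 8 and 2 IgG reads.

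**Figure D2:**
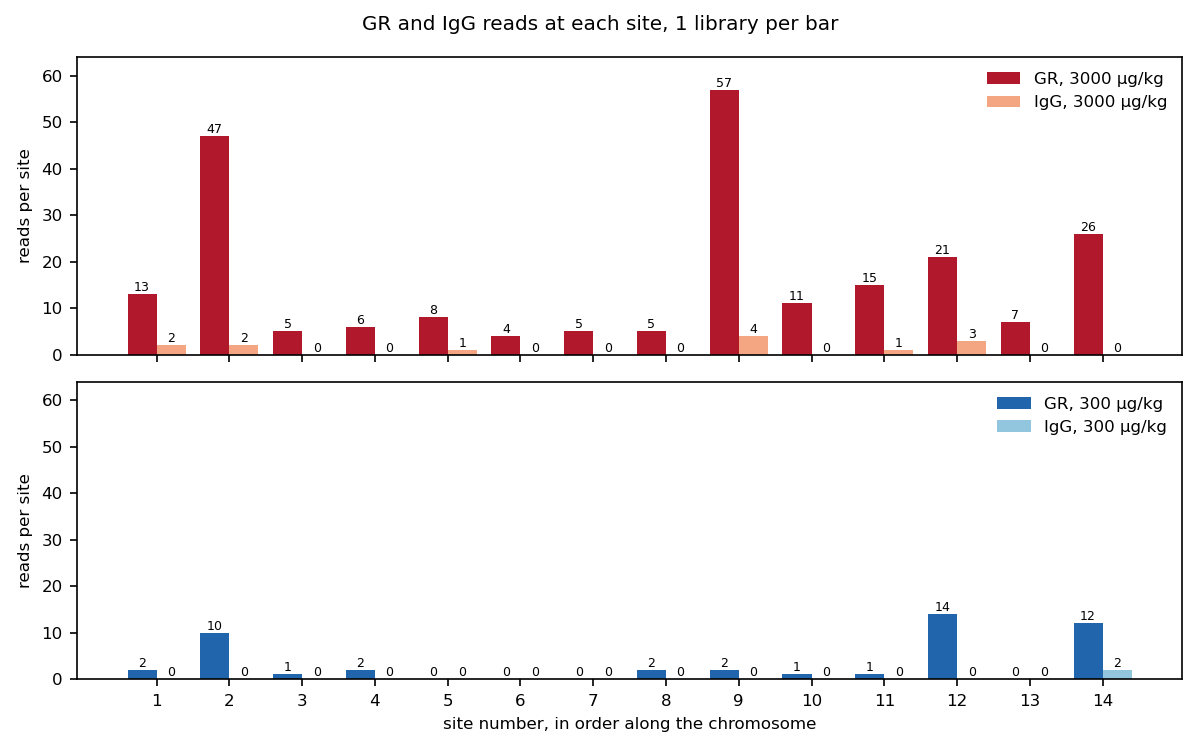
Reads at each of the 14 sites, numbered along the chromosome, at the high dose (upper panel) and the low dose (lower panel), with 1 bar per library and its count above it. Sites 9 and 2 are highest at the high dose, whereas sites 12, 14 and 2 are highest at the low dose.

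The ratio between the doses varied widely among neighbours. All 14 sites held more GR reads at the high than at the low dose, as did nearly all regions called at the high dose. Calling on GR reads at the high dose favours this order. Over all of them the ratio was 4.87 (3.55 to 6.82) on reads, from 230 and 47, and 4.82 (3.20 to 7.51) on fragments. It was 28.4 (7.50 to 239.9) at site 9, 10.9 (1.59 to 471) at site 10 and 14.9 (2.30 to 629) at site 11. Only 5.25 kb from site 9, site 12 had a ratio of 1.49 (0.724 to 3.17), and site 14, 11.05 kb away, one of 2.16 (1.05 to 4.69).

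The interval of site 9 did not overlap those of sites 12 and 14 on reads. On fragments site 9 had a ratio of 29.7 (4.94 to 1209), site 12 one of 1.56 (0.598 to 4.33) and site 14 one of 1.91 (0.773 to 5.17), so that the intervals of sites 9 and 14 then overlapped at their ends. Of the 10 sites with GR reads at both doses, 6 had an interval entirely above 1 on reads and 4 on fragments. Among the sites with 0 GR reads at the low dose, sites 5 and 13 had lower limits above 1 on reads, at 1.70 and 1.44, but not on fragments. Calling on GR reads at the high dose favours such intervals, and these counts were not set against all regions. Leaving out site 9 lowered the ratio over the sites to 3.83 (2.74 to 5.44).

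**Figure D3:**
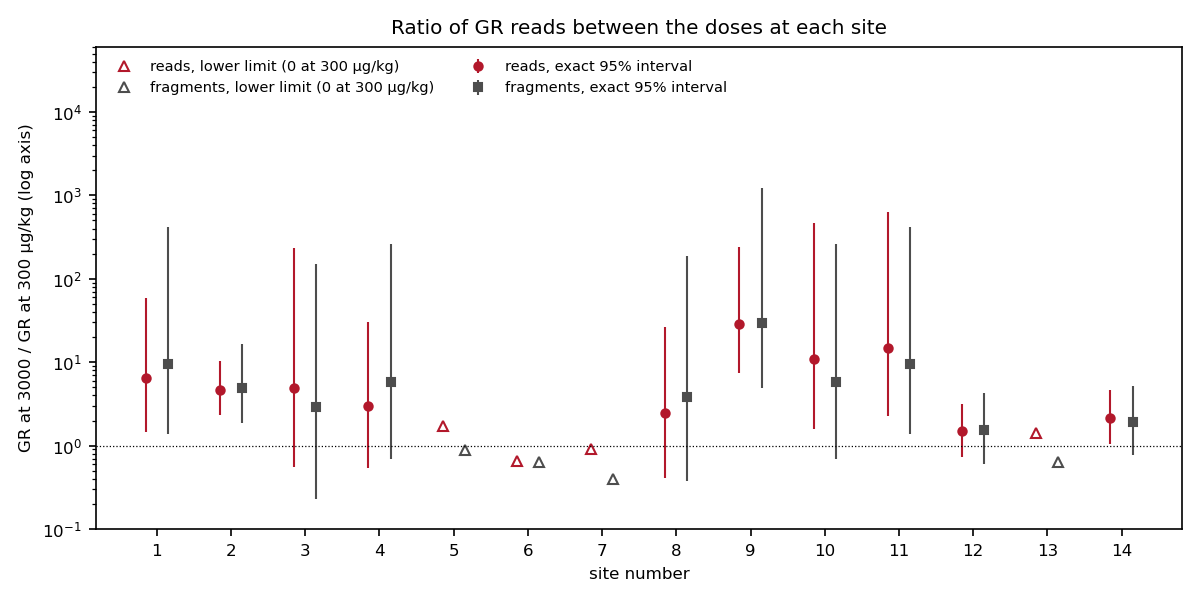
Ratio of GR reads at the high to the low dose at each site on a log axis, on reads (red circles) and on fragments (grey squares), with exact 95% intervals; triangles are the lower limits of these intervals where the count at the low dose was 0. Site 9 stands at 28.4 and site 12, in the same group, at 1.49.

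The 3 sites called at both doses, sites 2, 12 and 14, held 36 of the 47 GR reads that lay in sites at the low dose, or 76.6% (62.0 to 87.7%). At the high dose they held 94 of 230, or 40.9% (34.45 to 47.5%). Their choice on reads at the low dose raised the first share. On fragments the shares were 75% and 39.0%. In the 11 sites called at the high dose alone the GR libraries held 136 and 11 reads.

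The libraries at the low dose had no part in calling sites at the high dose, and GR was tested against IgG in them over all 6255 regions called at the higher dose. The interval and the test were chosen with earlier results of these libraries known, so that the outcome at its sites is a description. GR outnumbered IgG in 10 of the 14 sites, against 48.7% of the regions, and the other 4 sites held 0 of both. Site 12, with 14 reads against 0, passed the test (adjusted p = 0.0297, exact binomial, Benjamini-Hochberg over all regions), as did 0.416% of the regions. Site 2, with 10 against 0, did not (adjusted p = 0.195, exact binomial), nor did site 14 with 12 against 2 (adjusted p = 0.622, exact binomial). At an unadjusted exact binomial p of at most 0.05 these 3 sites were called, as were 3.73% of the regions.

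The test compares 1 library with another, and site 12 was called where the reads of both strands were counted. On fragments it held 8 against 0 and was not called, as 0 of the 6255 regions were, against 87 (1.39%) at an unadjusted exact binomial p of at most 0.05; 2 of these 87 were sites of the interval. Reads of the plus or minus strand alone also gave 0 calls in the interval, and 0 over the genome. Fewer counts entered the test on fragments and on single strands. The loss of the call at site 12 can therefore not be told apart from a loss of counts.

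Set beside strong regions elsewhere, sites 9 and 12 stood towards opposite ends of the range of the dose ratio. Of the 6255 regions, 229 held at least 20 GR reads at the high dose, and sites 2, 9, 12 and 14 were among them. These 229 held 0 to 28 GR reads at the low dose, with a median of 5; 56 of them (24.45%) held at most 2, as site 9 did, and 61 (26.6%) held at least 10, as the other 3 did. The log2 ratio between the doses, with 0.5 reads added to each count, had a median of 2.21 and quartiles of 1.52 and 3.10. It was 4.52 at site 9, exceeded in 15 of the regions, and 0.56 at site 12, where 1 region was lower. At site 14 it was 1.08, with 21 regions lower, and at site 2 it was 2.17, near the median.

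Most pairs of strong regions that lay close together differed less than sites 9 and 12. There were 18 pairs of such regions with centres within 20 kb of each other, and the median difference of the log2 ratio within a pair was 0.84. Sites 9 and 12 differed by 3.96 and sites 9 and 14 by 3.44, the largest 2 differences of the 18, followed by 2.32 for a pair on chromosome 1 with starts at 203339401 and 203342801. The third pair of the interval, sites 12 and 14, differed by 0.52. Sites 9 and 12 ranked first also on fragments, on each strand alone, without the shift of reads, within 200 bases of the centres and with scaling by reads outside regions. The 2 leading pairs share site 9, and several others share regions of 1 place on chromosome 8, from 52001001 to 52018100. The pairs are therefore not independent, and these ranks are a description with no test.

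**Figure D4:**
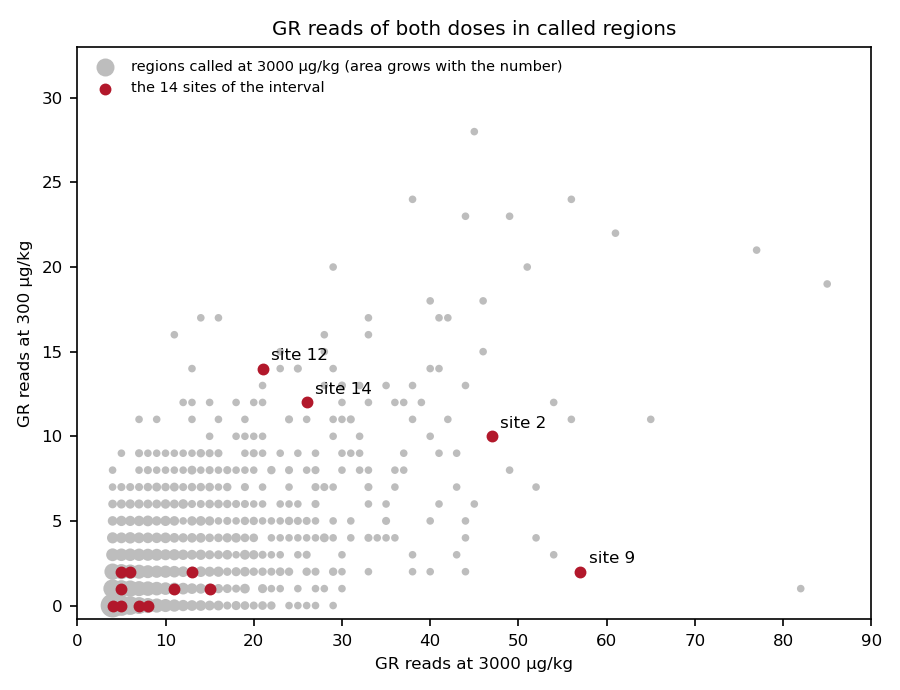
GR reads at the low dose against GR reads at the high dose in the regions called at the high dose (grey, larger where more regions share a point) and in the 14 sites (red). Site 9 lies low at 57 and 2 reads, and sites 12 and 14 lie high for their counts at the high dose.

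The reads of each strand showed where within a site they were centred. Around a bound point, reads of the plus strand start before it and those of the minus strand after it. Calling moved reads 75 bases in their own direction, which favours sites with this order. In the GR library at the high dose this order of medians held at 13 of 13 sites with reads on both strands. Site 4 had its 6 reads on the minus strand alone. The share of all called regions with this order was not counted, so that the order is not shown to be particular to these sites. The median starts lay 95.5 bases apart at site 2, 97.5 at site 12 and 112 at site 14. At the low dose they lay 101, 86.5 and 85 bases apart at the same 3 sites. Over the genome the commonest distance from a plus to a minus start was 90 to 99 bases in both GR libraries, with 30358 pairs of starts in that range at the high dose and 31286 at the low dose. In the IgG libraries it was 80 to 89 bases at the high dose, with 48530 pairs, and 100 to 109 bases at the low dose, with 38052. A commonest spacing between 80 and 109 bases was thus found in all 4 libraries, those with IgG included. At the sites the medians of the high dose lay from 63 bases apart at site 9 to 204 at site 6, which held 4 reads. What the spacing at the sites came from was not tested.

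The doses were centred close together at these 3 sites. The median position of GR reads at the low dose, each moved 75 bases towards its fragment, lay 33 bases before that at the high dose at site 2, 17 bases before it at site 12 and 4.5 bases after it at site 14. Site 9 was the broadest of the 7 sites with at least 10 GR reads at the high dose, in which the spread was measured. The middle 50% of its reads covered 158 bases, against 53 bases at site 12, 60 at site 10, 61 at site 14, 69 at site 11, 72.5 at site 2 and 108 at site 1. Its medians lay 63 bases apart, the closest of the 13 sites, and its called width of 800 bases was the largest. Of the 229 strong regions, whose median spread was 81.5 bases, 35 were broader than site 9.

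**Figure D5:**
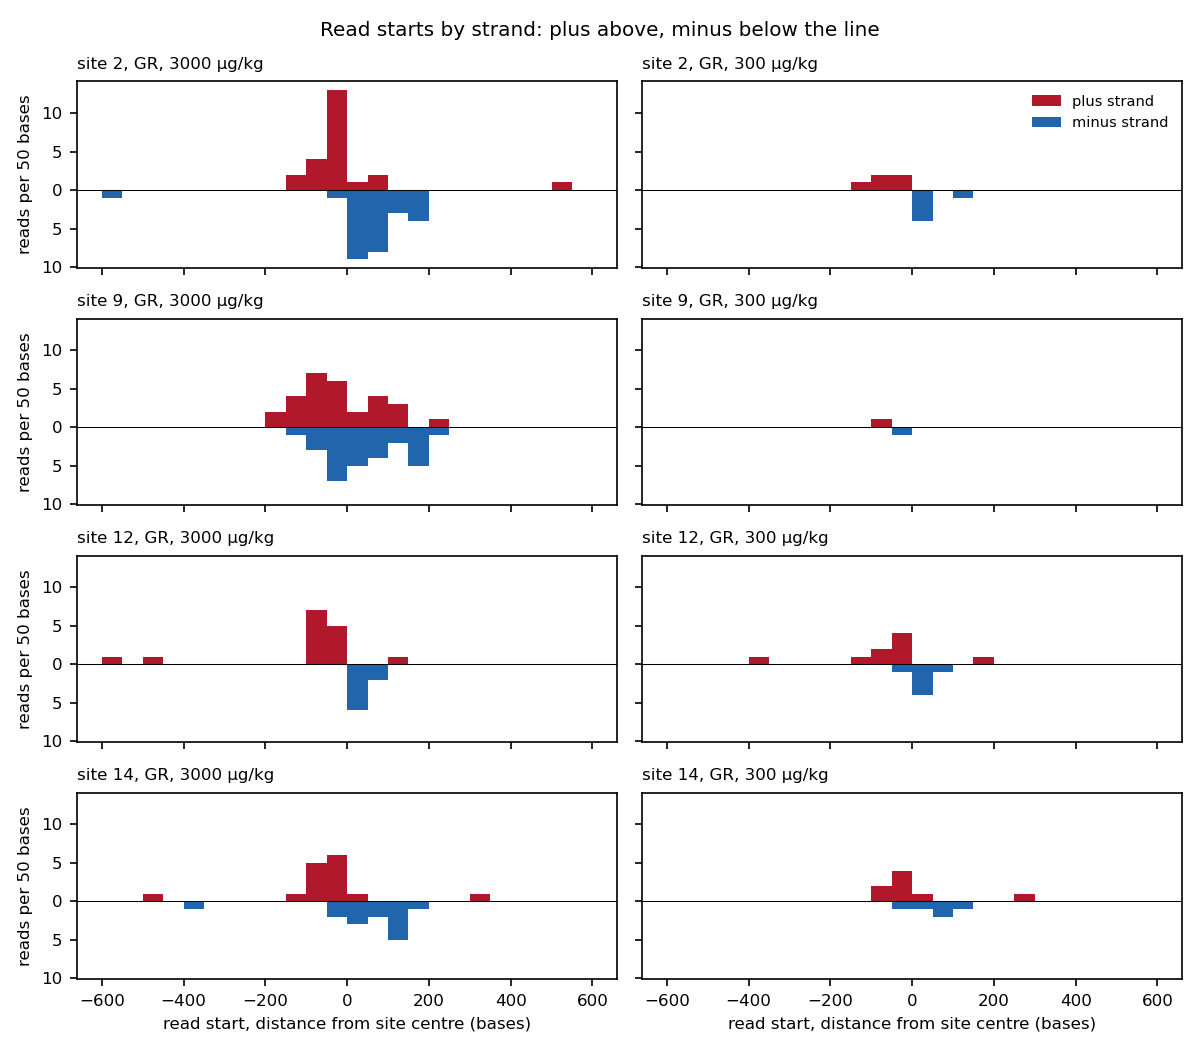
Starts of GR reads per 50 bases on the plus strand (above the line) and the minus strand (below it), by distance in bases from the centre of sites 2, 9, 12 and 14, at the high dose (left) and the low dose (right). The strands are offset at sites 2, 12 and 14 at both doses, and overlap over a wider stretch at site 9, which has 2 reads at the low dose.

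The IgG library at the high dose also had reads in the sites. It held reads in 6 of the 14 sites, with the highest count, 4, at site 9, and 1.81 reads per kb over the sites against 0.169 over the genome. The GR library of that dose held 31.9 reads per kb in the sites. IgG at the low dose held reads at site 14 alone, 0.278 per kb over the sites. Over all sites GR exceeded IgG 17.6-fold (10.1 to 33.6) at the high dose and 23.5-fold (6.15 to 199) at the low dose. The part of the IgG reads in the ratio between the doses was not tested.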

How the data were processed

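GR and IgG ChIP-seq reads of 4 libraries, 1 per group, were used. The authors deposited aligned reads of 36 bases with a count of 1 in each line, in rn4 per the submitters' processing notes, which also name bedtools and MACS; no aligner, version or filter is named there. Identical totals show that libraries were cut to 1 size before deposit, by a step the labels do not describe. That number limits precision: a count of 0 allows up to 3 reads. In each library 0 reads shared both position and strand with another read. A position thus counted at most 1 read per strand, which can limit counts at strong, narrow sites. Whether repeated reads were removed before deposit is not described.

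From these files, read starts were moved 75 bases and counted in windows of 300 bases every 100 bases on chromosomes 1 to 20 and X. A window was called with at least 4 reads at a Poisson p of at most 1e-05 against the larger of the genome mean and the IgG count in 1, 5 or 10 kb, and overlapping windows were merged. Sites of both doses sharing 1 base were joined. Ratios were scaled to library size. The exact binomial test doubled the smaller tail, with a threshold of 0.05 after Benjamini-Hochberg adjustment over all regions. The caller and test were tested on simulated data. Python 3.11.15, numpy 2.4.6, scipy 1.17.1 and pandas 2.3.3 were used.

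Every region called in the interval is named. The interval, sites, groups and tests were chosen with earlier results of these data known. The alternatives were other thresholds, windows, backgrounds, shifts, strands, scalings and merged fragments. Sequences at the sites were not used here.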

Additional observations from a re-analysis of the deposited data

How the results depend on the processing

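At 3000 µg/kg the interval held 14 sites, and 11 to 15 under a p threshold of 1e-07, windows of 600 bases, another IgG background, no IgG or no shift. It held 8 with at least 8 reads, 9 on fragments and 0 with the libraries exchanged. The genome held 6255 regions under the main setting, 1681 with at least 8 reads, 3033 on fragments and 1300 with the exchange. At 300 µg/kg the interval held 3 under every setting run except the exchange, which gave 0. The genome then held 1510 regions under the main setting, 129 with at least 8 reads, 334 on fragments and 954 with the exchange. The number of 250 kb stretches with as many regions as the interval was 2, or 4 at a p threshold of 1e-07 and with windows of 600 bases, and 3 under the other 6 settings. The ratio of doses over the sites stayed between 3.83 (without site 9) and 5.28 (with library sizes taken outside the regions). The number of sites that passed the test of GR above IgG at 300 µg/kg (exact binomial, adjusted p of at most 0.05) was 1 on reads. It was 0 on fragments, on the plus strand and on the minus strand, where fewer counts entered the test. Over the genome the settings that gave 0 sites also gave 0 regions, against 26 under the main setting. The adjusted p of site 12 (exact binomial) ranged from 0.0247 to 1 over all settings run for this test. The settings for the 250 kb stretches and for pairs of sites, and the ratio without site 9, were chosen after seeing the data. No paired analysis was possible because each group is 1 library and the labels give no replicate numbers.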

Other observations

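A few windows of the interval lay just outside the threshold. The strongest, from 6699801 to 6700200, held 6 GR and 2 IgG reads at the high dose and 0 reads of both at the low dose. A region at this place was called when the background was the pooled IgG, the low-dose IgG or no IgG. Just inside the threshold, site 6 held 4 GR reads and site 8 held 5, with 0 IgG reads at the high dose. The nearest regions called at the high dose outside the interval lay 98 kb before site 1 and 616 kb after site 14. The first, from 6551201 to 6551700, held 6 GR reads at the high dose and 0 reads in the other 3 libraries. The second, from 7380001 to 7380600, held 38 GR reads and 1 IgG read at the high dose and 13 and 2 at the low dose.

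The flanks of the interval held no site. In the 86.2 kb after the second group GR and IgG had 18 and 15 reads at the high dose, and 12 and 15 at the low dose. In the 49.7 kb before the first group the counts were 10 and 12, then 13 and 14. The 68.2 kb between sites 6 and 9, with sites 7 and 8 in it, held 37 GR and 25 IgG reads at the high dose and 21 and 10 at the low dose.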
